A study of Mus musculus with 24 samples.

Results

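The nuclear-encoded subunits of oxidative phosphorylation were followed in blood stem and progenitor cells of aged and young mice. Members were the genes whose symbols name a structural subunit of complex I (Ndufa, Ndufb, Ndufc, Ndufs and Ndufv), complex II (Sdha to Sdhd), complex III (Uqcr and Cyc1), cytochrome c (Cycs), complex IV (Cox4 to Cox8) or ATP synthase (Atp5a to Atp5l). Assembly factors and pseudogene symbols were left out. The rule reads symbols and no expression values, but it was set with earlier results of these data known. The rule gave 83 of the 24421 genes in the table, and 78 of them passed the filter on low counts. Of the other 5 members, Ndufs5 and Cox7b2 had no count in any library, and Cox8c, Ndufa4l2 and Cox6a2 had 1, 34 and 151 counts in all. Ndufs5 is a common complex I subunit, and 21.7% of the 50-base stretches of its transcripts also occur in other annotated genes. Ndufa4 is counted here with complex IV, to which it is now assigned, and Cox7a2l with complex IV as a factor that joins it to complex III.

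The cells came from bone marrow of male C57BL/6 mice, first enriched for CD117 (Kit) and then sorted as lineage-negative, Sca1-positive, Kit-positive cells. Among these, CD150 without CD48 defined the long-term hematopoietic stem cells (LT-HSC), the absence of both defined the short-term ones (ST-HSC), and CD48 without CD150 defined multipotent progenitors (MPP). The groups were LT-HSC, ST-HSC and MPP of aged mice (107 weeks), and the same populations of young mice (12 weeks). Each of the 6 groups had 4 bulk RNA-seq libraries. The labels count 4 mice per age but link no library number to a mouse, so p-values measure the spread between libraries.

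Oxidative phosphorylation takes place in the inner mitochondrial membrane. Complex I oxidizes NADH and complex II, which is also a citric acid cycle enzyme, oxidizes succinate. Electrons pass through ubiquinone to complex III, then by cytochrome c to complex IV, where oxygen is reduced to water. Complexes I, III and IV pump protons, and ATP synthase uses their return to make ATP. Complexes I, III and IV and ATP synthase also contain subunits encoded in mitochondrial DNA, whereas complex II is wholly nuclear. LT-HSC are known as mostly quiescent cells that draw more on glycolysis than their dividing progeny do. The deposited table holds no mitochondrially encoded gene, of 13 looked for.

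Libraries held 7307151 to 12946550 counts (median 8652939.5), with counts in 14416 to 16103 genes. The sort marker CD150 is encoded by Slamf1, whose level was 72.1 ± 11.7 CPM (a library's counts scaled to a common total) in aged LT-HSC and 26.2 ± 3.85 CPM in young LT-HSC (SD, n = 4 each), and the gene was under 0.8 CPM on average in the other groups. Cd48 was highest in MPP, at 90.2 ± 6.42 CPM in aged MPP and 66.4 ± 2.92 CPM in young MPP. Kit averaged 1040 to 1690 CPM over the groups. Of 12 erythroblast markers the hemoglobin genes had no count, but 5 or 6 others had counts in each group. This list took from 0.0302% of counts, in an aged MPP library, to 0.143%, in an aged ST-HSC library. Aged MPP library 4 stood apart from the other aged MPP libraries in several sums below, and shares of the sums in MPP are given with and without it.

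Regulatory sequence of 6 members is shown because their transcripts carry the main differences below, or, for Cycs, the link between complexes III and IV. RefSeq gives 100 bases before each start site (mouse GRCm38.p6, written 5′ to 3′ on the gene's strand). For Cycs this start lies upstream of the gene as GENCODE annotates it, and bases just after it were found in none of its annotated transcripts, whereas they were for the other 5. They lie at chr4:140961171-140961270 (plus strand) for Sdhb, chr6:50566570-50566669 (minus) for Cycs, chr9:108936548-108936647 (plus) for Uqcrc1, chr6:11907451-11907550 (minus) for Ndufa4, chr11:96075632-96075731 (minus) for Atp5g1 and chr17:83514334-83514433 (minus) for Cox7a2l. Capitals mark the letters GCATGCGC of nuclear respiratory factor 1 (NRF1), a known activator of respiratory genes, in Sdhb and Cycs, and GGGCGG of Sp1 in Cox7a2l. The other 3 sequences hold none of the NRF1, ETS, YY1 or Sp1 letters given below. The stretches of Sdhb, Uqcrc1, Ndufa4 and Atp5g1 run partly into the gene as GENCODE annotates it. The marked letters of Sdhb lie inside that annotated gene.
Sdhb: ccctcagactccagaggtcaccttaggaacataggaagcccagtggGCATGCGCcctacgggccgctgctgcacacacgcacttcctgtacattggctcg
Cycs: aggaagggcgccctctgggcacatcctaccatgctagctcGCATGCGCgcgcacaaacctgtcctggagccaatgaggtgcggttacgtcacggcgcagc
Uqcrc1: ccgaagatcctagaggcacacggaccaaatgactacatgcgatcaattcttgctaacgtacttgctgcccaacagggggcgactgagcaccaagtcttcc
Ndufa4: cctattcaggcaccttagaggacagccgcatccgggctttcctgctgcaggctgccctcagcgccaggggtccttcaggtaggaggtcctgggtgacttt
Atp5g1: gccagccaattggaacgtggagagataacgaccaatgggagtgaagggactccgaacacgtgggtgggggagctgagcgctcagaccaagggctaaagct
Cox7a2l: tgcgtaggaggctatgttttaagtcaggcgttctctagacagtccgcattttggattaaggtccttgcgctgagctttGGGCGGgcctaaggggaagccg

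The windows in RefSeq run over 300 bases, from 250 before to 50 after the start, and 66 members had one. Both strands were searched for exact letters, and matches of different motifs may overlap. GCATGCGC was in 11 of the 66 member windows (16.7%), against 3.05% of all 27025 genes with a window and 5.69% of the 10647 tested genes with one. The 11 members were Ndufa6, Ndufa8, Ndufa11, Sdhb, Uqcr11, Uqcrc1, Cycs, Cox6a1, Atp5g2, Atp5k and Atp5l, so they came from every complex. AAGATGGCG of YY1 was in 7 member windows (10.6%), against 1.64% of all genes and 3.32% of tested genes. CCGGAAG of ETS factors was in 16 member windows (24.2%), against 9.93% of all genes and 18.7% of tested genes. GGGCGG was in 27 (40.9%), against 38.2% of all genes and 65.9% of tested genes. CCAAT was in 30 (45.5%), against 41.1% and 42.2%, and TATAAA in 7 (10.6%), against 15.7% and 8.95%. These are matches of letters and not sites shown to be bound.

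Levels between genes are compared as CPM per kilobase of exon. In aged LT-HSC the highest means were 150 CPM per kb for Atp5a1, the alpha subunit of the ATP synthase head, 80.8 for its catalytic partner Atp5b, 79.0 for Cox6a1, 78.3 for Cox7a2l, 62.1 for Cox4i1, 59.4 for Ndufa4 and 58.2 for Sdha. In aged MPP Atp5a1 was again highest, at 234 CPM per kb. It was followed there by Ndufa4 at 202, Cox6a1 at 188, Atp5b at 137 and Cox4i1 at 102 CPM per kb. Ndufa4 was thus sixth among members in aged LT-HSC and second in aged MPP. Union exon length was used, so genes with long rare transcripts are understated.

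All members together took 3363 ± 61.0 CPM in aged LT-HSC, 3969 ± 417 CPM in aged ST-HSC and 5567 ± 671 CPM in aged MPP. The young sums were 3856 ± 303 CPM in LT-HSC, 3805 ± 155 CPM in ST-HSC and 4869 ± 358 CPM in MPP (SD, n = 4 in each group). By library the sums were 3305, 3444, 3330 and 3373 CPM in aged LT-HSC, against 3528, 3847, 4260 and 3789 CPM in young LT-HSC. In MPP they were 5211, 5301, 5185 and 6571 CPM in aged cells and 5198, 4404, 4779 and 5095 CPM in young cells. The ages did not overlap in LT-HSC, and they overlapped in MPP, where aged library 4 was far above the rest. The aged ST-HSC sums of 4189, 3848, 3443 and 4394 CPM lay on both sides of the young ST-HSC sums of 3869, 3610, 3767 and 3974 CPM. A lower share of a bulk library can come from fewer cells of a type or from less of the RNA in each cell, and these cannot be told apart.

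**Figure D1:**
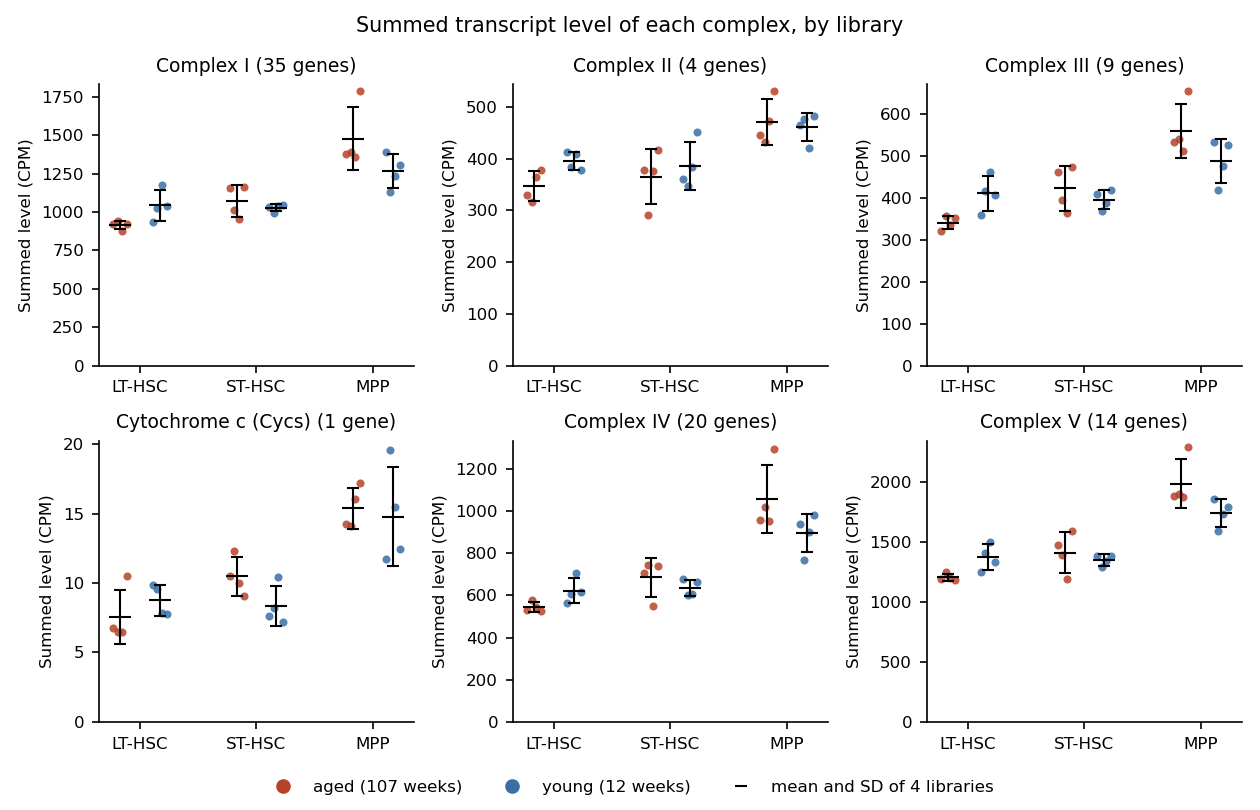
Summed CPM of the members of each complex in LT-HSC, ST-HSC and MPP, with 1 point per library, bars for the mean and SD, and aged beside young. For all members together, aged LT-HSC libraries lie between 3305 and 3444 CPM and all 4 young LT-HSC libraries lie above them, while aged MPP library 4 reaches 6571 CPM.

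Each complex had a lower mean sum in aged than in young LT-HSC, by similar shares. By library the ages overlapped for complex I, where the highest aged sum was 938.9 and the lowest young sum 934.2 CPM. They also overlapped for complex IV (579.5 and 561.6 CPM) and cytochrome c (10.49 and 7.76 CPM). In complex II they met at 377.4 CPM. The ages stayed apart in complex III (356.5 and 360.3 CPM) and, narrowly, in ATP synthase (1248 and 1249 CPM). Complex I was at 915.3 ± 26.4 CPM in aged LT-HSC, against 1044 ± 99.8 CPM in young LT-HSC. ATP synthase, the complex with the largest sum, was at 1206 ± 28.3 and 1374 ± 107 CPM in aged and young LT-HSC. As a share of the young mean, the aged LT-HSC mean was 87.6% for complex I, 87.6% for complex II, 83.0% for complex III, 86.5% for cytochrome c, 87.7% for complex IV and 87.8% for ATP synthase. In MPP the same shares were 117%, 102%, 115%, 104%, 118% and 114%. Without aged MPP library 4 they were 109%, 97.6%, 108%, 100%, 109% and 108%, and all members together were at 107% in place of 114%. Complex II was at 470.4 ± 44.0 CPM in aged MPP, or 450.1 ± 21.0 CPM without library 4, against 461.3 ± 27.8 CPM in young MPP, so the direction of this small difference rests on that library. Most of the complex II sum is Sdha, at 266 ± 29.4 CPM in aged MPP and 281 ± 23.4 CPM in young MPP.

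In LT-HSC, 16 members fell with age and 1 rose, while 61 tested members did not pass. Members were called at an adjusted p under 0.05 in edgeR's quasi-likelihood test over all 14205 tested genes. The median member log2 difference was -0.24, and 69 of 78 tested members (88.5%) were below 0, against a median of 0.00 and 49.5% over all tested genes. The background was that 8.87% of all tested genes fell, 9.98% rose and 18.9% changed in either direction. Libraries did not overlap between the ages for 18 members lower in aged cells, which 9.62% of all tested genes also showed, and for 1 member higher (12.5%). By complex, 4 of 34 tested members fell in complex I, 2 of 4 in complex II, 4 of 9 in complex III, 3 of 16 in complex IV and 3 of 14 in ATP synthase. Without young LT-HSC library 3, which had the highest member sum of its group, 10 members were called in place of 17. That fit also called fewer of all tested genes, 14.1% in place of 18.9%. In a fit without 3 libraries at once (young LT-HSC 1, aged ST-HSC 2 and aged ST-HSC 3), 21 fell and 1 rose.

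**Figure D2:**
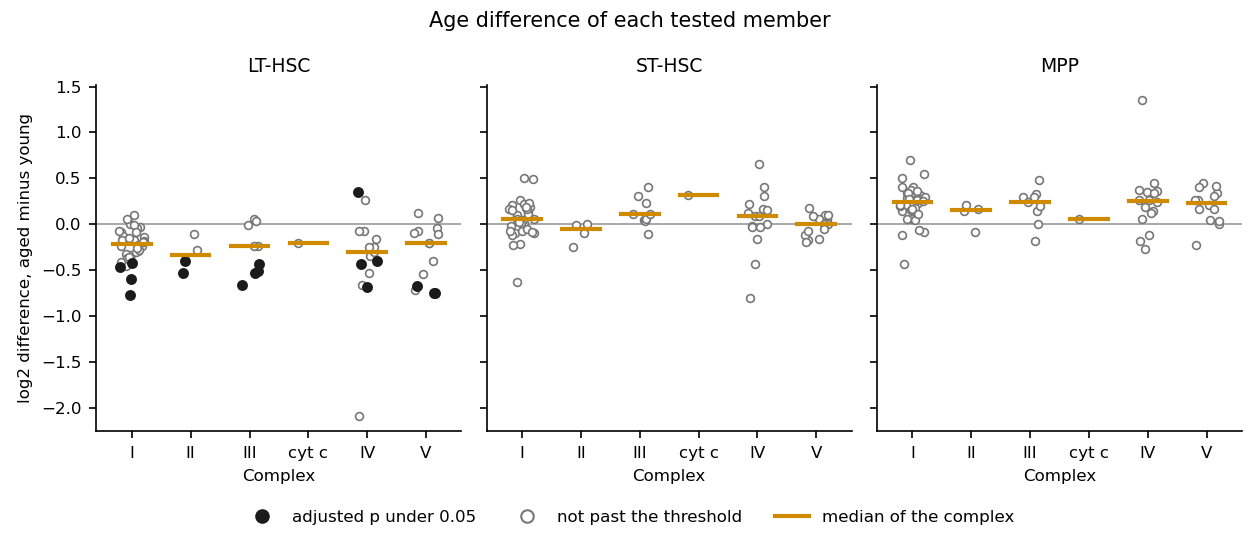
Log2 difference between aged and young cells for each tested member, grouped by complex, in LT-HSC, ST-HSC and MPP, with called members marked. In LT-HSC 69 of 78 members lie below 0 and the called ones are all below 0 but Cox7a2l, and in MPP 68 of 78 lie above 0 with none called.

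Complex III held the member of smallest p. Uqcrc1 encodes core protein 1, a matrix-facing scaffold of the complex (chr9:108936633-108949623, mm10), and its RefSeq window holds the NRF1 letters outside the 100 bases shown above. It was at 102, 99.7, 105 and 106 CPM in aged LT-HSC, against 129, 143, 144 and 142 CPM in young LT-HSC. The groups were far apart, and the 4 aged libraries differed little from each other. The log2 difference was -0.44 ± 0.10 (SE), with an edgeR adjusted p = 0.0019. Uqcrc2, its partner core protein, showed no such gap, at 109, 103, 93.9 and 113 CPM in aged LT-HSC, against 86.0, 101, 120 and 103 CPM in young LT-HSC (log2 difference 0.03 ± 0.11, edgeR adjusted p = 0.89). Uqcr11, a small accessory subunit, was at 23.7, 21.9, 20.4 and 22.8 CPM in aged cells and 31.4, 35.0, 32.6 and 29.1 CPM in young cells (-0.53 ± 0.15, edgeR adjusted p = 0.016). Cyc1, cytochrome c1, carries the heme that passes electrons to cytochrome c. It averaged 33.1 ± 7.00 CPM in aged LT-HSC, against 47.0 ± 4.86 CPM in young LT-HSC, with groups that overlapped, and had edgeR adjusted p = 0.015 (0.059 without aged LT-HSC library 1). Uqcr10, another small subunit, fell by 0.66 on the log2 scale with edgeR adjusted p = 0.044, but lost its call in 7 of 33 alternative fits (other scalings, filters, tools or designs, or libraries left out), with up to 0.20 without young LT-HSC library 3.

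In complex IV, Ndufa4 (chr6:11900292-11907497), first assigned to complex I, was at 81.3, 86.6, 81.2 and 79.0 CPM in aged LT-HSC and 119, 105, 116 and 101 CPM in young LT-HSC. The highest aged library lay below the lowest young one. Its log2 difference was -0.43 ± 0.10 with edgeR adjusted p = 0.0020. Cox6c, a small regulatory subunit (chr15:35925886-35938246), was at 16.6, 23.6, 17.2 and 20.0 CPM in aged cells, against 35.0, 28.7, 34.6 and 26.1 CPM in young cells. These groups also stayed apart, at -0.68 ± 0.17 (edgeR adjusted p = 0.0058). Cox6a1, the common form of a subunit that binds adenine nucleotides, averaged 55.4 ± 4.88 CPM in aged LT-HSC, against 73.4 ± 10.2 CPM in young LT-HSC (edgeR adjusted p = 0.031). Its call was lost in 5 alternatives: 0.055 by limma-voom, 0.087 or 0.050 with aged library 3 or 4 left out, and 0.076 or 0.10 with young library 2 or 3 left out.

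Cox7a2l was the exception. It encodes a factor that links complex III to complex IV in supercomplexes, and C57BL/6 mice are known to carry a shortened form of the protein. Its transcript was at 129, 103, 127 and 104 CPM in aged LT-HSC, against 87.7, 83.8, 94.5 and 97.9 CPM in young LT-HSC. All aged libraries were above all young ones, and libraries 1 and 3 were highest. The log2 difference was 0.35 ± 0.09 with edgeR adjusted p = 0.0077, and the call held in all 33 alternatives. In its transcripts 13.8% of 50-base stretches occur in other annotated genes.

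In complex II, the catalytic iron-sulfur subunit Sdhb and the membrane anchor Sdhc fell, and the flavoprotein Sdha and the anchor Sdhd did not pass. Sdhb, whose promoter letters are given above (gene at chr4:140961203-140979193), was at 37.4, 38.7, 42.5 and 40.4 CPM in aged LT-HSC, against 49.5, 56.3, 54.1 and 49.5 CPM in young LT-HSC. Sdhc (chr1:171127165-171150603) was at 16.9, 14.8, 15.6 and 16.8 CPM in aged cells and 26.0, 20.4, 25.4 and 21.0 CPM in young cells. Neither gene overlapped between ages. Their log2 differences were -0.40 ± 0.12 for Sdhb (edgeR adjusted p = 0.018) and -0.53 ± 0.13 for Sdhc (0.0053). Sdhd was at -0.28 ± 0.14 (0.16). Sdha was at 229, 217, 250 and 264 CPM in aged LT-HSC and 283, 242, 262 and 248 CPM in young LT-HSC, which overlap (-0.11 ± 0.11, edgeR adjusted p = 0.53). Subunits of the same complex thus had unlike values, with means of 75.9% of young for Sdhb and 69.1% for Sdhc.

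In ATP synthase the c ring, which turns as protons pass, is built of a single protein encoded by Atp5g1, Atp5g2 and Atp5g3. Atp5g1 (chr11:96068852-96075670) was at 11.0, 13.7, 10.1 and 11.8 CPM in aged LT-HSC, against 15.9, 20.8, 25.2 and 16.9 CPM in young LT-HSC. These did not overlap (-0.75 ± 0.19, edgeR adjusted p = 0.0048). Atp5g3 had the highest level of the c genes per exon length, 43.4 CPM per kb in aged and 57.2 CPM per kb in young LT-HSC. It was at 99.7, 94.5, 87.0 and 97.1 CPM in aged cells and 116, 128, 143 and 112 CPM in young cells. These did not overlap either, yet the gene missed the threshold (-0.40 ± 0.15, edgeR adjusted p = 0.066). Atp5g2 was at 21.7, 22.7, 23.9 and 14.1 CPM in aged and 15.9, 23.6, 26.9 and 22.0 CPM in young LT-HSC, and overlapped (-0.10 ± 0.16, 0.72). Of its 50-base stretches 38.4% occur in other genes, the highest share among members, so its counts are uncertain, and for Atp5g1 the share was 11.1%. Atp5e, the epsilon subunit of the central stalk, and Atp5h, the d subunit of the peripheral stalk, also fell (edgeR adjusted p = 0.018 and 0.042), with groups that overlapped. Atp5e had 0.081 if young LT-HSC library 3 was left out and 0.052 if aged LT-HSC library 4 was, and Atp5h lost its call in 8 alternatives, with up to 0.099 without aged LT-HSC library 1.

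In complex I none of the 7 core subunits, which carry the flavin and iron-sulfur clusters, passed in LT-HSC (median log2 difference -0.17), and 4 of 27 tested accessory subunits fell (median -0.24). Ndufa3 was at 23.1, 22.4, 22.4 and 22.7 CPM in aged LT-HSC, against 30.6, 30.0, 31.1 and 33.6 CPM in young LT-HSC. The aged libraries were nearly equal and all under the young ones (-0.47 ± 0.12, edgeR adjusted p = 0.0063). Ndufb2 averaged 15.9 ± 1.85 CPM in aged LT-HSC, against 24.1 ± 5.28 CPM in young LT-HSC (edgeR adjusted p = 0.018). It had 0.051 if aged LT-HSC library 2 was left out and 0.087 if young LT-HSC library 3 was. Ndufa12 averaged 3.93 ± 0.815 and 6.75 ± 1.24 CPM in aged and young LT-HSC (0.035), and lost its call in 7 of 33 alternatives, with up to 0.11 without young LT-HSC library 3. Ndufb10 averaged 21.8 ± 2.80 and 29.2 ± 2.73 CPM (0.047), and lost its call in 13 of 33 alternatives, with up to 0.14 without aged LT-HSC library 1. The calls that held in all 33 alternatives were Uqcrc1, Uqcr11, Ndufa4, Cox6c, Cox7a2l, Sdhb, Sdhc, Ndufa3 and Atp5g1.

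Markers of other cells were read in the same LT-HSC libraries, as shares of all counts. The 14 granulocyte markers took 0.00690 to 0.00792% in aged LT-HSC, against 0.0987% in young LT-HSC library 1 and 0.00293 to 0.00435% in the other 3 young libraries. Young library 1 thus stood apart, and without it 16 members fell with age and 1 rose. The 11 T and NK cell markers took 0.00841 to 0.0127% in aged and 0.00261 to 0.00328% in young LT-HSC, which did not overlap, with Cd3e, Cd3g, Ncr1 and Gzma at 0 at both ages. Endothelial and stromal markers were also apart, at 0.0191 to 0.0233% in aged and 0.0129 to 0.0182% in young LT-HSC, as were those of monocytes and macrophages, at 0.0255 to 0.0296% and 0.0307 to 0.0356%. These sums do not speak for each marker. Of 4 tested T and NK cell markers 1 rose with age and none fell (median log2 difference -0.12). Of 7 tested endothelial and stromal markers 2 rose and none fell (median -0.05). Of 12 tested monocyte and macrophage markers none passed (median -1.16). Over all tested genes 9.98% rose and 8.87% fell. B and plasma cell markers took 0.00195 to 0.00352% in aged and 0.00219 to 0.00290% in young LT-HSC, with Ms4a1, Pax5 and Igll1 at 0 at both ages. The part of the lists that were apart in the member values was not tested.

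**Figure D3:**
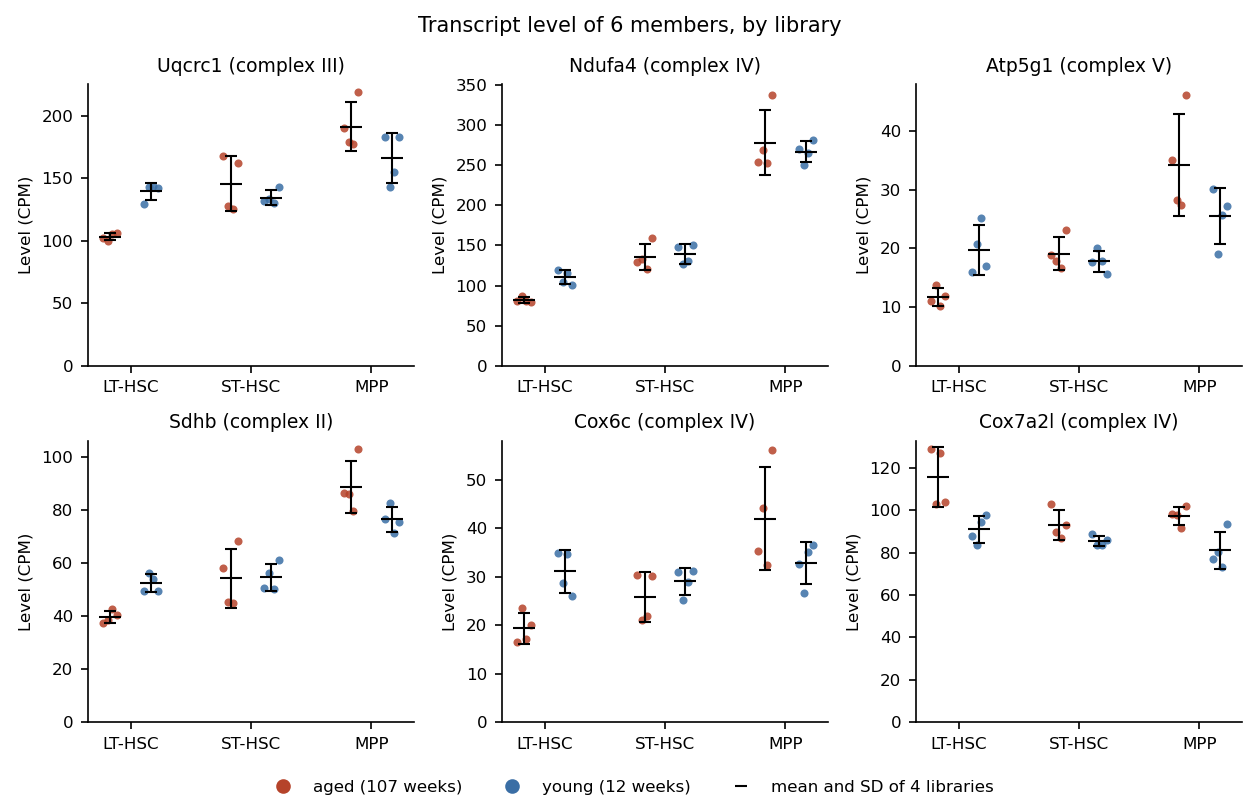
CPM of Uqcrc1, Ndufa4, Atp5g1, Sdhb, Cox6c and Cox7a2l in every library, by population, aged left of young, with bars for the mean and SD. In LT-HSC the ages do not overlap for any of the 6 genes, and Cox7a2l alone is higher in aged cells.

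In ST-HSC no member passed between the ages by edgeR, and 4 were under 0.05 before adjustment, where 3.58% of all tested genes rose and 2.21% fell (5.79% either way). The median member log2 difference was 0.05, with 29 of 78 below 0. The smallest edgeR adjusted p was 0.11, for Cox6b2, a form known from testis, at 11.0, 15.2, 6.27 and 9.15 CPM in aged ST-HSC and 7.38, 6.88, 5.49 and 6.60 CPM in young ST-HSC. Ndufa4 was at 130, 133, 121 and 159 CPM in aged ST-HSC and 148, 127, 131 and 151 CPM in young ST-HSC, and the ages overlapped. Uqcrc1 was at 168, 128, 125 and 162 CPM in aged ST-HSC, against 132, 133, 130 and 143 CPM in young ST-HSC. Its aged libraries 1 and 4 lay above all young ones, and libraries 2 and 3 below them. The share of counts in granulocyte markers was 0.319%, 0.266%, 0.252% and 0.0181% in aged ST-HSC libraries 1 to 4 and 0.00874 to 0.0410% in young ST-HSC, and their part in the values was not tested. DESeq2 and limma-voom also called no member here.

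In MPP no member passed by edgeR either, where 5.53% of all tested genes rose and 4.27% fell (9.79% either way), and most members had higher means in aged cells. The median log2 difference was 0.22, 68 of 78 were above 0 and 21 were under 0.05 before adjustment. Without aged MPP library 4 the median was 0.13. Aged libraries were all above the young ones for 12 members (8.83% of all tested genes), and all below for 1 (7.64%). By complex the medians were 0.24 for complex I, 0.15 for complex II, 0.24 for complex III, 0.06 for Cycs, 0.25 for complex IV and 0.23 for ATP synthase. Cox7a2l came closest, at 98.1, 97.8, 91.7 and 102 CPM in aged MPP and 77.0, 80.4, 73.0 and 93.5 CPM in young MPP (0.27 ± 0.09, edgeR adjusted p = 0.062). DESeq2 called 2 members in MPP. Aged MPP libraries also held more counts of B and plasma cell markers, 0.185 to 0.884% against 0.00845 to 0.0397% in young MPP, with all 12 markers detected in both and aged library 4 highest. Granulocyte markers took 0.151 to 0.553% of counts in aged and 0.0761 to 0.331% in young MPP. The part of these cells in the member values was not tested.

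The age differences of LT-HSC and MPP were set against each other by a test of their difference. It was below 0 and passed for 15 members and above 0 for none, against 4.89% and 5.05% of all tested genes (9.93% either way), and the member median was -0.46. The 15 members were 5 of complex I, 2 of complex II, 2 of complex III, 3 of complex IV and 3 of ATP synthase. For Uqcrc1 the difference was -0.64 ± 0.14 (edgeR adjusted p = 0.0029), for Atp5g1 -1.17 ± 0.26 (0.0038), for Cox6c -1.04 ± 0.24 (0.0059) and for Cox6a1 -0.77 ± 0.18 (0.0074). Atp5g1 shows both sides: it was at 35.1, 28.2, 27.3 and 46.1 CPM in aged MPP and 30.1, 19.0, 25.7 and 27.2 CPM in young MPP, so lower in aged LT-HSC and, on average, higher in aged MPP. Without aged MPP library 4 the count was 11.

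Between LT-HSC and ST-HSC the age differences differed for 3 members, all below 0 (2.39% of all tested genes, with 1.65% above 0 and 4.05% either way), with a median of -0.33. Uqcrc1 was at -0.55 ± 0.14 (edgeR adjusted p = 0.019) and passed in all 33 alternatives. Uqcr11 (-0.76 ± 0.22, 0.043) lost its call in 11 of 33 alternatives and Cox6b2 (-1.20 ± 0.34, 0.046) in 19. This count was 1 without any of aged LT-HSC library 3, aged ST-HSC library 1, young LT-HSC libraries 2 or 3, young ST-HSC libraries 2 or 3, or young MPP library 4, and 5 and 9 without aged MPP library 4 and aged ST-HSC library 3. Between ST-HSC and MPP edgeR called no member, with 3 under 0.05 before adjustment, where 0.282% of all tested genes were below 0, 0.183% above 0 and 0.465% differed either way.

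LT-HSC had less of most members than MPP, and more members passed among aged than among young cells. Among aged cells 64 members were lower and 1 higher in LT-HSC than in MPP, with a median log2 difference of -0.79, and 75 of 78 were below 0. Of all tested genes 28.5% were lower and 28.3% higher in the same comparison (56.8% either way). Among young cells 24 members were lower and 1 higher, with a median of -0.31 and 69 below 0, where 18.3% of all tested genes were lower and 18.9% higher (37.2% either way). Of the 24 members lower in young LT-HSC, 23 were among the 64 lower in aged LT-HSC, which is 95.8% of the young and 35.9% of the aged list. Over all tested genes the same shares were 86.5% and 55.6%. The young count of 25 became 13 if young MPP library 1 was left out and 16 if young LT-HSC library 1 was, and the aged count of 65 stayed between 60 and 66 without any single library. The higher member among aged cells was Cox7a2l, a factor of supercomplex assembly, at 116 ± 13.8 CPM in aged LT-HSC, against 97.4 ± 4.29 CPM in aged MPP (0.25 ± 0.09, edgeR adjusted p = 0.021). Its call was lost without the filter on low counts (0.051), and if aged LT-HSC library 1 (0.11) or 3 (0.090) or aged MPP library 3 (0.080) was left out. Without aged MPP library 4, which stood apart, the aged median was -0.70. Markers of other cells also differed here. B and plasma cell markers took 0.00195 to 0.00352% of counts in aged LT-HSC, against 0.185 to 0.884% in aged MPP. Granulocyte markers took 0.00690 to 0.00792% and 0.151 to 0.553%. Erythroblast markers went the other way, at 0.0848 to 0.0971% and 0.0302 to 0.0516%. In young cells B and plasma markers took 0.00219 to 0.00290% and 0.00845 to 0.0397%. Whether other cells bear on the member values was not tested.

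**Figure D4:**
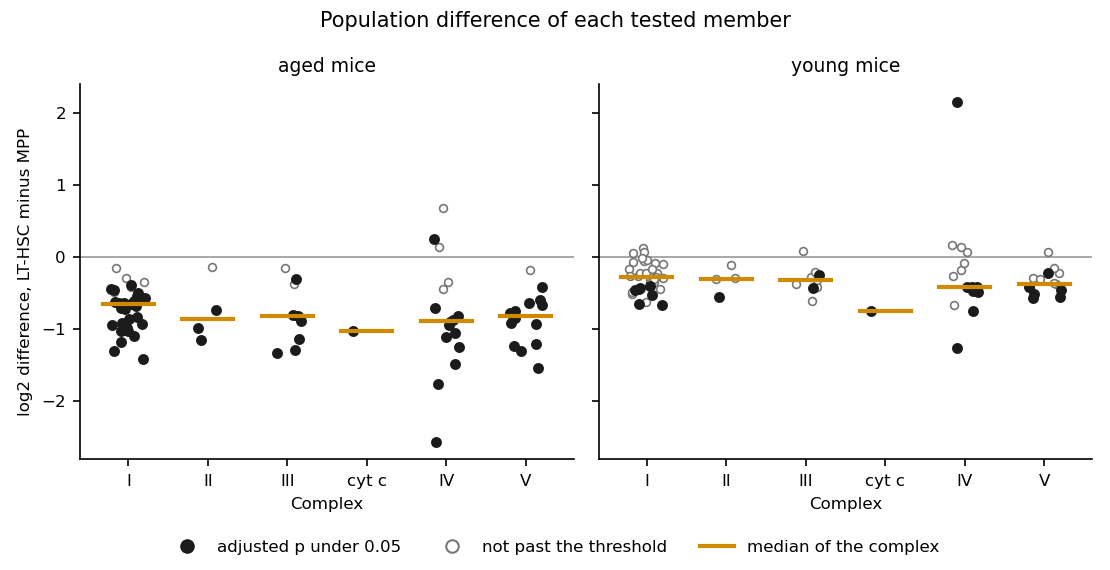
Log2 difference between LT-HSC and MPP for each tested member, by complex, in aged and in young cells, with called members marked. Most members lie below 0 at both ages, and the aged medians are further from 0 in every complex, at -0.65 for complex I and -0.89 for complex IV.

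By complex the aged medians between LT-HSC and MPP were -0.65 for complex I, -0.86 for complex II, -0.83 for complex III, -1.02 for cytochrome c, -0.89 for complex IV and -0.82 for ATP synthase. The young medians were -0.28, -0.30, -0.32, -0.76, -0.42 and -0.37 in the same order. Among aged cells 29 of 34 complex I members, 3 of 4 complex II members, 7 of 9 complex III members, Cycs, 11 of 16 complex IV members and 13 of 14 ATP synthase members were lower in LT-HSC. Among young cells these were 7, 1, 2, Cycs, 7 and 6. Complex I core subunits took part here, with 6 of 7 lower in aged LT-HSC, beside 23 of 27 accessory subunits. Summed, complex IV in aged LT-HSC was at 546.0 ± 23.8 CPM, or 51.7% of the 1055 ± 162 CPM in aged MPP, and complex II at 346.6 ± 29.1 CPM, or 73.7% of 470.4 ± 44.0 CPM. Without aged MPP library 4 these shares were 55.9% for complex IV and 77.0% for complex II. In young cells the shares were 69.5% for complex IV and 85.8% for complex II.

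Ndufa4 had the smallest p of all members in each of the 6 population comparisons. It was at 81.3, 86.6, 81.2 and 79.0 CPM in aged LT-HSC and 254, 269, 253 and 338 CPM in aged MPP. In young cells it was at 119, 105, 116 and 101 CPM in LT-HSC and 271, 250, 266 and 282 CPM in MPP. No library of LT-HSC came near any library of MPP. The log2 difference was -1.76 ± 0.10 among aged cells (edgeR adjusted p = 2.4e-14) and -1.27 ± 0.09 among young cells (edgeR adjusted p = 3.5e-11). Its levels in MPP overlapped between the ages, at 279 ± 40.2 CPM in aged MPP, against 267 ± 13.5 CPM in young MPP.

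Other members with small p in aged cells had a related shape, with the lowest level in aged LT-HSC. Cox5a, a matrix-side subunit of complex IV, was at 14.9, 19.3, 19.1 and 21.0 CPM in aged LT-HSC, against 39.5, 49.8, 47.0 and 73.1 CPM in aged MPP (-1.49 ± 0.20, edgeR adjusted p = 3.6e-07). Ndufs8, a core complex I subunit with iron-sulfur clusters, was at 29.2, 30.5, 29.0 and 29.0 CPM in aged LT-HSC, against 61.5, 59.0, 54.2 and 78.7 CPM in aged MPP (-1.11 ± 0.14, edgeR adjusted p = 1.4e-07). The aged LT-HSC libraries were close to each other, and neither gene overlapped between the populations. Sdhb was at 86.6, 86.1, 79.8 and 103 CPM in aged MPP, so aged LT-HSC held 44.7% of that mean (-1.16 ± 0.12, edgeR adjusted p = 3.3e-09). Atp5g1 in aged LT-HSC held 34.2% of its aged MPP mean (-1.55 ± 0.18, edgeR adjusted p = 7.3e-08). Atp5b, the catalytic beta subunit, was lower by less, at 328, 365, 337 and 339 CPM in aged LT-HSC, against 568, 571, 566 and 610 CPM in aged MPP (-0.76 ± 0.08, edgeR adjusted p = 6.3e-09).

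Among young cells the same direction held for fewer genes. Atp5b was at 332, 389, 362 and 356 CPM in young LT-HSC and 569, 464, 513 and 516 CPM in young MPP, with no overlap (-0.52 ± 0.08, edgeR adjusted p = 7.4e-06). Sdhb was at -0.55 ± 0.12 (edgeR adjusted p = 0.00042) and Ndufb8, an accessory complex I subunit, at -0.65 ± 0.15 (0.0015). The core complex I subunit Ndufs8 was at -0.53 ± 0.14 (edgeR adjusted p = 0.0032), and Atp5c1, the gamma shaft of ATP synthase, at -0.45 ± 0.11 (0.0016). Cox5a and Cox6a1 were at -0.75 ± 0.20 and -0.48 ± 0.13 (edgeR adjusted p = 0.0034 and 0.0040), although their populations overlapped. Uqcrc1 was at -0.25 ± 0.10 (edgeR adjusted p = 0.042), a call lost in 22 of 33 alternatives. Uqcr11 (0.025) lost its call in 5, Atp5l, a membrane subunit of ATP synthase (0.017), in 4, and Ndufb5 (0.0099) without young MPP library 1, with 0.052.

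Cycs encodes somatic cytochrome c, the mobile electron carrier that also takes part in apoptosis (gene at chr6:50562563-50566538). It was at 6.77, 6.50, 6.50 and 10.5 CPM in aged LT-HSC, 10.5, 12.3, 10.0 and 9.05 CPM in aged ST-HSC and 14.2, 14.1, 16.0 and 17.2 CPM in aged MPP. In young cells it was at 9.85, 9.58, 7.82 and 7.76 CPM in LT-HSC, 7.63, 8.19, 10.4 and 7.22 CPM in ST-HSC and 11.7, 19.5, 15.5 and 12.4 CPM in MPP. MPP was above LT-HSC in every library at both ages. The log2 difference of LT-HSC from MPP was -1.02 ± 0.20 among aged cells (edgeR adjusted p = 1.0e-04) and -0.76 ± 0.20 among young cells (0.0038), and no age comparison of Cycs passed. In its transcripts 26.2% of 50-base stretches are shared with other annotated genes, so its counts are uncertain.

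The populations fell in the order LT-HSC, ST-HSC, MPP, with rising group means, for 68 of 78 members (87.2%) among aged cells and 28 of 78 (35.9%) among young cells. Over all tested genes these shares were 31.3% and 24.9%. MPP had the highest mean for 74 members among aged and 68 among young cells, while LT-HSC had the lowest mean for 69 among aged and 29 among young cells. The mean of ST-HSC thus lay between those of LT-HSC and MPP for most members among aged cells and for fewer among young cells.

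**Figure D5:**
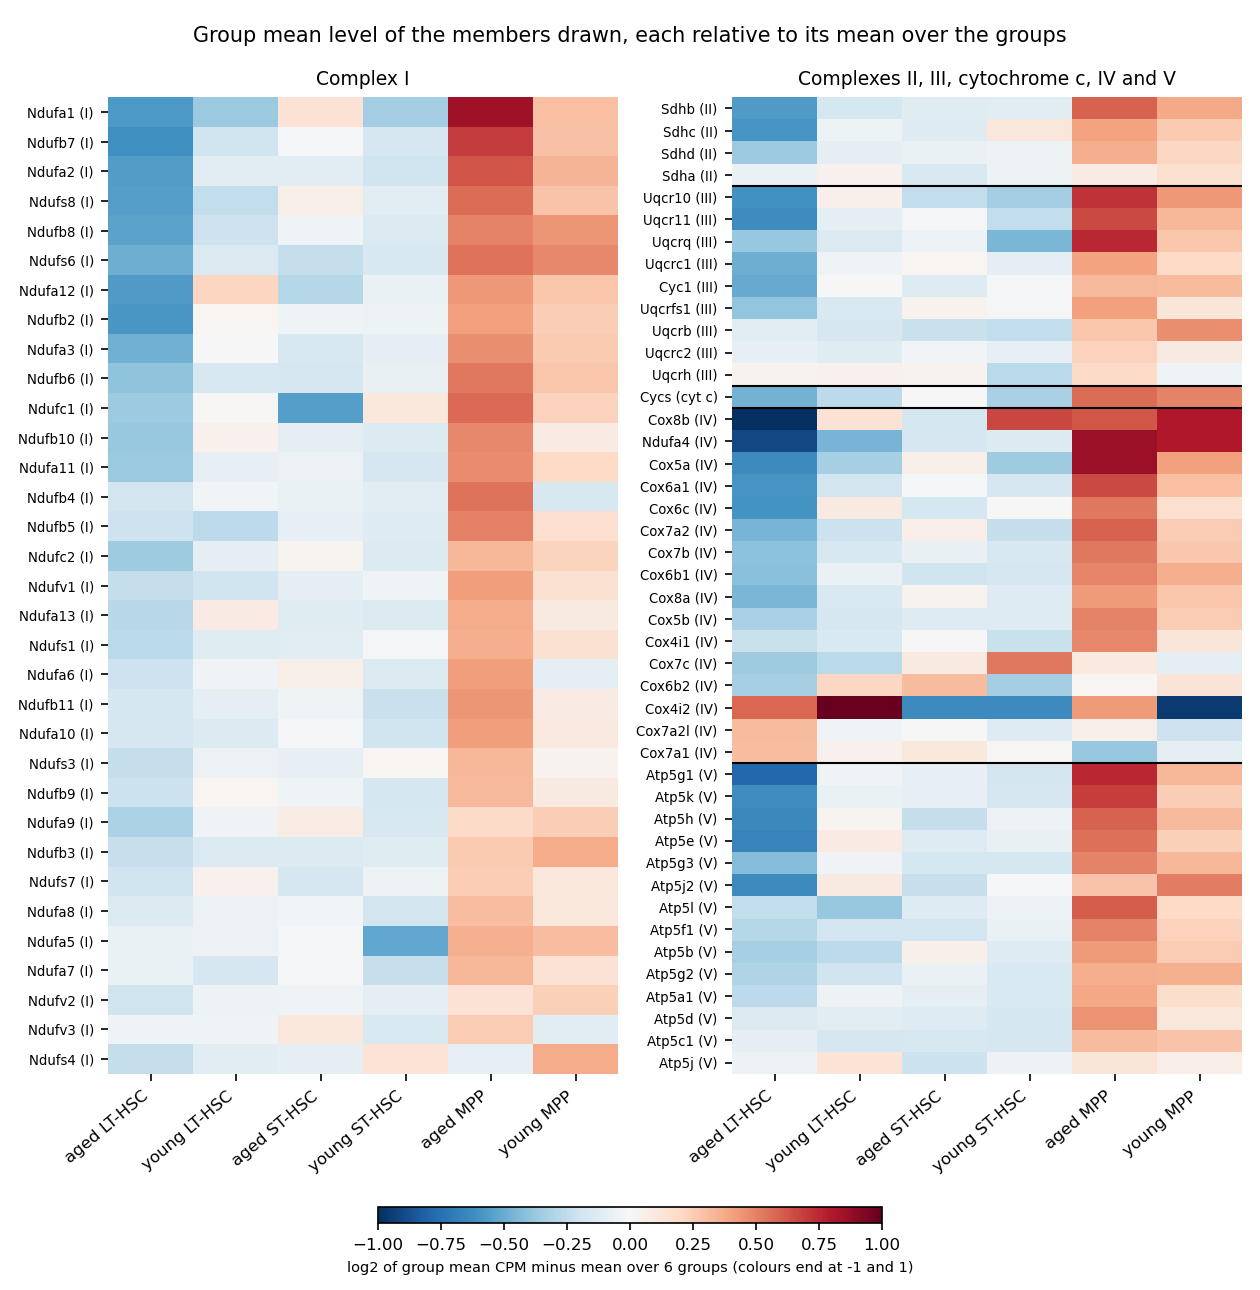
Level of 77 tested members in each group as the log2 difference from that gene's mean over all 6 groups, with members in rows by complex and groups in columns, aged beside young within LT-HSC, ST-HSC and MPP. Colours end at 1 in either direction, and MPP has the highest mean for 74 of all 78 tested members among aged cells.

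Between LT-HSC and ST-HSC, 22 members were lower and 1 was higher in aged LT-HSC than in aged ST-HSC (16.1% and 16.2% of all tested genes, 32.3% either way), with a median of -0.26. In young cells 1 member was lower and none higher (5.74% and 6.79%), with a median of 0.06. The 22 members were 8 of complex I, 2 of complex II, 4 of complex III, 6 of complex IV and 2 of ATP synthase. Ndufa4 averaged 82.0 ± 3.21 CPM in aged LT-HSC and 136 ± 16.6 CPM in aged ST-HSC (-0.72 ± 0.10, edgeR adjusted p = 1.1e-06), followed by Uqcrc1 (-0.50 ± 0.10, 0.00021), Atp5b (-0.38 ± 0.08, 0.00044) and Ndufs8 (-0.61 ± 0.14, 0.0010). Cox7a2l was the member that was higher, at 129, 103, 127 and 104 CPM in aged LT-HSC and 103, 89.6, 86.8 and 93.1 CPM in aged ST-HSC (edgeR adjusted p = 0.0089). The young member was Ndufa4 (-0.33 ± 0.09, 0.018), whose call was lost if ST-HSC library 1 (0.084) or 4 (0.070), or LT-HSC library 2 (0.072) or 4 (0.10), of the young mice was left out. The aged count of 23 became 14 without aged ST-HSC library 1 or aged LT-HSC library 3.

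Between ST-HSC and MPP, 51 members were lower in aged ST-HSC and 24 in young ST-HSC, and none was higher at either age (14.4% and 10.1% of all tested genes were lower, 15.5% and 10.5% higher, so 29.9% either way among aged and 20.6% among young cells). The medians were -0.50 among aged and -0.34 among young cells. Ndufa4 averaged 136 ± 16.6 CPM in aged ST-HSC, against 279 ± 40.2 CPM in aged MPP (-1.04 ± 0.09, edgeR adjusted p = 5.6e-09). In young cells it averaged 139 ± 12.1 CPM in ST-HSC and 267 ± 13.5 CPM in MPP (-0.94 ± 0.09, edgeR adjusted p = 9.7e-08). Sdhb was at -0.71 ± 0.12 among aged cells (3.7e-05) and -0.49 ± 0.12 among young cells (edgeR adjusted p = 0.0032), and Atp5a1 at -0.48 ± 0.08 (4.4e-05) and -0.33 ± 0.08 (0.0034). The aged count became 33 without aged MPP library 4 and 25 without the set of 3 libraries named for the age comparison. The young count became 13 and 14 without young MPP libraries 1 and 4.

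Isoforms known from other tissues were also counted. Cox6b2, known from testis, averaged 6.64 ± 1.75 CPM in aged LT-HSC, 10.4 ± 3.73 CPM in aged ST-HSC and 8.46 ± 1.35 CPM in aged MPP, and 9.65 ± 0.647, 6.59 ± 0.797 and 9.16 ± 1.92 CPM in the same populations of young mice. It was lower in aged LT-HSC than in aged ST-HSC (-0.64 ± 0.24, edgeR adjusted p = 0.043), with groups that overlapped, and lost this call in 10 of 33 alternatives, with up to 0.21 without aged ST-HSC library 2. Cox4i2, the form of lung and of low oxygen, was higher in young LT-HSC, at 1.19, 1.79, 1.98 and 2.81 CPM, against 0, 0.132, 0.487 and 1.08 CPM in young MPP. The populations did not overlap (2.16 ± 0.71, edgeR adjusted p = 0.017), but these are 10 to 37 counts per library in LT-HSC and 0 to 9 in MPP. The call was lost if young MPP library 1 (0.057) or 2 (0.059) or young LT-HSC library 4 (0.060) was left out, and the log2 difference was 3.17 without young MPP library 4. Cox4i1, the common form, averaged 101 ± 19.1 CPM in young LT-HSC and 122 ± 22.2 CPM in young MPP. Cox8b, a form of heart and muscle, had 5 counts over the 4 aged LT-HSC libraries and 40 over the aged MPP libraries (-2.58 ± 0.83, edgeR adjusted p = 0.0097). These groups overlapped, and the call was not among those followed through the alternatives. The common Cox8a was at 29.6 ± 3.91 and 54.6 ± 8.84 CPM in aged LT-HSC and aged MPP. Cox7a1, another muscle form, averaged 3.18 ± 0.546 CPM in aged LT-HSC and 1.98 ± 0.197 CPM in aged MPP and did not pass (0.12), and its common partner Cox7a2 averaged 34.8 ± 1.80 and 72.3 ± 15.6 CPM in the same groups. Cox6a2, the muscle partner of Cox6a1, was not tested. It had 11, 68, 11 and 36 counts in the aged MPP libraries, 2, 1, 13 and 5 in the young MPP libraries, and at most 2 in any library of the other groups.

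Sdha did not pass in the population comparisons either. Its means were 240 ± 21.1 CPM in aged LT-HSC and 266 ± 29.4 CPM in aged MPP, and 259 ± 18.2 CPM in young LT-HSC and 281 ± 23.4 CPM in young MPP, with groups that overlapped. Neither comparison passed (edgeR adjusted p = 0.25 and 0.42). The log2 differences were -0.15 ± 0.11 among aged and -0.12 ± 0.11 among young cells. Sdha was among 10 tested members that passed in none of the 9 comparisons of ages or populations, while 68 passed in at least 1. The same share over all tested genes was not counted. In LT-HSC against MPP among aged cells alone, 56.8% of all tested genes passed. The anchors Sdhc and Sdhd were lower in aged LT-HSC than in aged MPP, at -0.99 ± 0.13 (4.8e-07) and -0.73 ± 0.13 (edgeR adjusted p = 4.2e-05). Among young cells neither anchor passed, at -0.31 ± 0.13 for Sdhc and -0.29 ± 0.13 for Sdhd (edgeR adjusted p = 0.062 and 0.090), so Sdhb was the 1 member of complex II called there.

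Other mitochondrial genes were read beside the members. Between aged and young LT-HSC 8.87% of all tested genes fell and 9.98% rose. The counts below for assembly factors, the citric acid cycle and biogenesis were near or under the share that fell. Of 6 tested subunits that the symbol rule does not reach, 1 fell with age in LT-HSC, Atp5o, the oligomycin sensitivity subunit of ATP synthase (34.9 ± 4.47 CPM in aged, 52.8 ± 7.78 CPM in young LT-HSC, edgeR adjusted p = 0.0076). Of 44 assembly factors of the complexes 2 fell, Timmdc1 for complex I and Coa3 for complex IV (-0.59 and -0.63), and the median was -0.09. Mitochondrial import had 3 of 23 lower, led by Timm50 of the inner membrane translocase (-0.83), with a median of -0.28. The citric acid cycle had 2 of 19 lower, Pcx, which makes oxaloacetate from pyruvate, and Idh2 (-2.16 and -0.54), and of genes for biogenesis and mitochondrial transcription 1 of 19 was lower, Mterf4 (-0.57). None of 15 genes of mitochondrial dynamics and turnover passed by edgeR. In glycolysis 4 of 22 rose and 5 fell, among them Hk2, a hexokinase (1.10), the glucose transporter Slc2a3 (0.52) and Pfkl (-0.46).

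In young LT-HSC set against young MPP, 13 of 19 citric acid cycle genes were lower (median -0.28), among them Idh2, Idh3g and Mdh2 (-0.75, -0.48 and -0.52). Import genes were lower for 7 of 23, among them the chaperones Hspa9 and Hspd1. Of the assembly factors 1 was lower and 1 higher of 44, Uqcc2 and Acad9 (-0.72 and 0.33). In the biogenesis list 4 of 19 were lower and 1 higher, near or under the shares of all tested genes (18.3% lower and 18.9% higher). The lower ones included Nrf1, Gabpb1 and Yy1 (-0.62, -0.66 and -0.47), whose letters or family letters were searched for above. Whether these factors bear on the member values was not tested. Glycolysis had 9 of 22 higher and 5 lower, with Ldhb, Slc2a3 and Slc2a1 among the higher ones (1.17, 0.88 and 0.83). Among aged cells 28.5% of all tested genes were lower and 28.3% higher in LT-HSC than in MPP. There the assembly factors had 2 higher and 7 lower of 44, the citric acid cycle 15 lower of 19 (median -0.49) and import 15 lower of 23 (median -0.58). Other lists did not share that direction. Genes of mitochondrial dynamics and turnover had 6 higher and 1 lower of 15 among aged cells (median 0.26), and 3 higher and none lower among young cells (median 0.17), led by the mitophagy ligase gene Park2 at both ages. Glycolysis had 10 higher and 8 lower of 22 among aged cells (median 0.26).

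Genes of cell division also differed in the same comparisons. These lists were written with earlier results of these data known, so their counts are no independent result. Of all tested genes 8.87% fell with age in LT-HSC and 5.53% rose with age in MPP. In LT-HSC 28.5% were lower than in MPP among aged cells and 18.3% among young cells. Of 36 S phase genes, 31 fell with age in LT-HSC (median -1.20), led by Mcm3, at 130 ± 6.26 CPM in aged LT-HSC, against 327 ± 50.9 CPM in young LT-HSC. In LT-HSC set against MPP 35 were lower among aged cells (median -2.0) and 28 among young cells (median -0.80). Of 24 genes of G2 and mitosis 1 fell with age in LT-HSC, though their median was -0.78. All 24 were lower in LT-HSC than in MPP at both ages (median -2.87 among aged and -2.29 among young cells). Cytosolic ribosomal protein genes had 2 higher and none lower of 50 between aged and young LT-HSC (median 0.00), and 9 higher and none lower between aged and young MPP (median 0.32). Whether the share of dividing cells bears on the member values was not tested.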

How the data were processed

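The submitters' processing notes name HISAT2, featureCounts, Trim Galore and build mm10. No version, annotation or strand option is given in the sources used here. Per the labels' protocols, cDNA was made with not-so-random primers, Klenow fragment and a Nextera XT kit, which as described marks no strand and adds no molecular identifiers, so reads of overlapping genes cannot be told apart. The authors deposited whole-number counts per gene symbol for 24 libraries, and no normalized values were used.

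From these counts, genes passing filterByExpr (14205 of 24421, 99.92% of counts) were tested in R 4.3.3 with edgeR 4.0.16. TMM factors, a robust quasi-likelihood fit of 6 group means on all 24 libraries (18 residual degrees of freedom, biological coefficient of variation 0.213) and Benjamini-Hochberg adjustment over all tested genes were used, at a threshold of 0.05. SE is that of the log2 difference. CPM are the counts of a gene scaled by library total and TMM factor, and sums and means have the SD over 4 libraries. The step was tested on simulated data. DESeq2 1.42.0, limma 3.58.1 (voom), other scalings and filters, a replicate block and leaving out libraries gave 33 alternatives. Python 3.11.15, pandas 2.3.3, numpy 2.4.6 and matplotlib 3.10.9 made summaries and figures.

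Gene coordinates, exon lengths and 50-base stretches shared between genes came from GENCODE M21, and promoter sequence from RefSeq GRCm38.p6; both use the coordinates of mm10. The members and lists were chosen with earlier results of these data known, and gene lists came in part from an earlier pass over the same libraries. Named members were, per complex, up to 4 of smallest p in the age and LT-HSC to MPP comparisons, up to 4 in the others, those called against the main direction, and all Sdh genes, c subunit genes, Cycs and tissue forms. Uqcrc2 was added as the partner of Uqcrc1 after its values were seen. Members were called by the threshold alone, without a minimum fold. Ribosomal Rn45s took 5.64 to 10.9% of counts and stayed in the main fit. The values of 1 tested member are not reported here singly, though it stays in the sums and counts.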

Additional observations from a re-analysis of the deposited data

Results flagged for a closer look

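Of 114 group values examined for a library far from the other 3, 8 stood out, where chance marks about 1 in 20. Aged MPP library 4 was highest in 4 of them: the sum of all members (6571 CPM), the complex I sum (1785 CPM), the ATP synthase sum (2290 CPM) and Cox6a1 (167 CPM). Aged LT-HSC library 4 was high in Cycs, at 10.5 CPM, and so in the cytochrome c sum, which is the same gene (10.49 CPM). Young LT-HSC library 1 was low in Uqcrc1 (129 CPM), and young ST-HSC library 2 was low in Sdhc (21.5 CPM).

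The age difference in LT-HSC differed from that in MPP, by a test of the difference in edgeR, for 15 members, all lower. Of all tested genes 4.89% were lower and 5.05% higher in this test. In complex I these were Ndufa2 (-0.74), Ndufa3 (-0.67), Ndufa13 (-0.64), Ndufb2 (-0.76) and Ndufb10 (-0.82). In complex II they were Sdhb (-0.61) and Sdhc (-0.67), and in complex III Uqcrc1 (-0.64) and Uqcr11 (-0.86). In complex IV they were Ndufa4 (-0.49), Cox6a1 (-0.77) and Cox6c (-1.04), and in ATP synthase Atp5a1 (-0.41), Atp5e (-1.06) and Atp5g1 (-1.17). Against ST-HSC the age difference in LT-HSC differed for Uqcrc1 (-0.55), Uqcr11 (-0.76) and Cox6b2 (-1.20). These were 3.85% of the tested members, where 4.05% of all tested genes differed either way and 2.39% were lower. Uqcr11 and Cox6b2 lost this call in 11 and 19 of 33 alternatives.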

How the results depend on the processing

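Over 75 named results, 57 kept their call in all 33 alternatives and 18 lost it in at least 1; of 2475 alternative values 128 missed the threshold and none reversed. The count of called members moved by over 1.5 times in these cases. By DESeq2 it was 2 for age in MPP (0 by edgeR) and 2 for LT-HSC against ST-HSC in young cells (1 by edgeR), where limma-voom and a fit to only these groups each gave 3. A fit to only the groups compared gave 1 for the age difference of LT-HSC against that of ST-HSC (3 by edgeR on all libraries). Without the set of 3 libraries (young LT-HSC 1, aged ST-HSC 2 and aged ST-HSC 3) the counts were 1 for age in MPP, 25 for ST-HSC against MPP in aged cells and 13 for the age difference of LT-HSC against that of ST-HSC. Leaving out 1 library at a time gave 10 to 21 members for age in LT-HSC, 0 to 2 in ST-HSC and 0 to 1 in MPP. It gave 60 to 66 and 13 to 30 for LT-HSC against MPP in aged and young cells, 14 to 28 and 0 to 2 for LT-HSC against ST-HSC, and 33 to 55 and 13 to 29 for ST-HSC against MPP. The age difference of LT-HSC gave 1 to 9 against that of ST-HSC and 11 to 19 against that of MPP, and ST-HSC against MPP gave 0. The cause of these moves was not tested, and fewer libraries also mean less power.

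A replicate block by library number gave 16 called members for age in LT-HSC, 66 and 27 for LT-HSC against MPP in aged and young cells, and moved no count by over 1.5 times. Under it Uqcr10, Ndufa12 and Ndufb10 missed the threshold for age in LT-HSC (adjusted p = 0.052, 0.053 and 0.061), and no other named result lost its call. The numbers share no stated mouse, and deviations of same-numbered libraries within an age correlated at 0.0402 on average (-0.0414 to 0.130, 4 of 24 pairs over 0.1, with 15 of 24 libraries closest to their own number). For other-numbered libraries of different populations within an age the average was -0.0132 (-0.21 to 0.161, 4 of 72 pairs over 0.1). Whether same-numbered libraries share a mouse is not known, and the main fit has no such block. Scaling by total counts alone moved the higher share of all called genes to 51.3% from 61.8% for age in ST-HSC, to 42.3% from 56.4% in MPP and to 62.6% from 51.7% for ST-HSC against MPP in aged cells. It also moved that share to 44.3% from 52.9% for age in LT-HSC and to 60.2% from 51.0% for ST-HSC against MPP in young cells, and shifted the median of all genes by under 0.1 in log2. At 7307151 counts or more per library, members under about 2 CPM, such as Uqcrb, Cox4i2 and Cox8b, rest on few reads. The shares of sums without aged MPP library 4 were added after the data were seen.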
